A study of Mus musculus with 6 samples.

Results

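The colony-stimulating factors and their receptors were followed in mouse alveolar macrophages exposed to bacterial lipopolysaccharide (LPS) with or without vitamin D3 (VD3). The system has 8 genes, 3 ligands (Csf1, Csf2 and Csf3) and 5 receptor subunits (Csf1r, Csf2ra, Csf2rb, Csf2rb2 and Csf3r). They were chosen by symbol, with earlier results of these data known, and all 8 were among the 23413 genes of the deposited count table. Macrophages of wild-type (WT) mice were taken from lung lavage. In the LPS group they received 100 ng/mL LPS in vitro for 4 hours in complete RPMI medium, and in the LPS + VD3 group 50 nM VD3 as well. The control group is labelled control and WT, and how it was cultured is not stated. There was no group with VD3 alone. Polyadenylated RNA was sequenced in 2 libraries per group, 6 in all. No age, sex or number of mice was stated, nor whether each library came from its own mice, and the p-values therefore rest on a spread between libraries that may be technical.

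Colony-stimulating factors are secreted cytokines that keep myeloid cells alive and direct their growth and maturation. Macrophage colony-stimulating factor (M-CSF, from Csf1) acts through a receptor tyrosine kinase, granulocyte-macrophage colony-stimulating factor (GM-CSF, from Csf2) through an alpha and a shared beta chain bound to the kinase JAK2, and granulocyte colony-stimulating factor (G-CSF, from Csf3) through its own receptor, mainly on neutrophils. In the lung, GM-CSF made by alveolar epithelial cells is required for the maturation of alveolar macrophages and for their clearing of surfactant.

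The libraries held 5022314 to 5465223 counts. Each of the 11 alveolar macrophage marker genes was detected, with a summed level of 23767 to 30715 CPM over the 6 libraries. Chil3, listed under an older symbol, Chi3l3, held the largest part of it, with group means of 13917 to 16696 CPM. With LPS, 4 of the 11 rose, 5 fell and 2 did not pass, where 31.8% of all tested genes were called. CPM are counts scaled to library totals adjusted by trimmed mean of M values (TMM), except where totals without TMM are named. The lung epithelial marker Sftpc, the neutrophil markers S100a9, Mpo, Elane and Retnlg, the T-cell marker Cd3e and the eosinophil markers Epx and Prg2 had 0 counts in every library. Other markers of such cells were present. The lung epithelial marker Cdh1 had 1295 and 1485 counts in control and 148 to 250 in the treated libraries. The neutrophil markers S100a8 and Cxcr2 had 60 to 96 and 26 to 66 counts per library. Sums of the epithelial, neutrophil and monocyte markers are given below. Over the 6 libraries, 9 lymphocyte markers summed to 50.5 to 86.6 CPM, led by Il7r and Cd2, 8 dendritic cell markers to 18.8 to 34.1 CPM and 9 stromal and endothelial markers to 38.0 to 56.2 CPM, mostly Vwf (180 to 325 counts). Cd2 fell with LPS (35.3 ± 2.60 to 12.9 ± 0.878 CPM, SD, n = 2) and so did the dendritic cell marker Clec9a (19.3 ± 5.06 to 4.99 ± 0.670), while Il7r rose (27.3 ± 0.822 to 55.2 ± 22.6; adjusted p = 0.000531, 0.000608 and 0.0123 by edgeR). Another dendritic cell marker, Xcr1, rose (0.749 ± 0.152 to 3.16 ± 0.400 CPM, adjusted p = 0.00856 by edgeR), and Batf3 did not pass (log2 fold change -0.01). The stromal marker Pdgfrb rose from 0 to 3.77 ± 0.394 CPM (adjusted p = 0.00034 by edgeR), while Cdh5 and Vwf did not pass. The part of these cells in the results was not tested. In such bulk RNA, fewer cells of a type and less RNA per cell cannot be told apart.

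Stretches of sequence show how Csf2rb and Csf2rb2 can and cannot be told apart, which matters because both carry results below. Csf2rb, on the plus strand of chromosome 15 (chr15:78325752-78353847, GRCm38, which is mm10), encodes the beta chain shared by the receptors for GM-CSF, interleukin 3 and interleukin 5. Csf2rb2, on the minus strand beside it (chr15:78282507-78305721), encodes a related beta chain that serves interleukin 3. Their coding sequences of 2688 and 2634 bases were 95.2% identical over 2628 aligned bases in the longest GENCODE M21 coding transcript of each. The 80 aligned bases in which they differed most lie at chr15:78338907-78338986 (plus strand) and chr15:78294345-78294424 (minus strand), with 15 mismatches, shown in capitals.
Csf2rb: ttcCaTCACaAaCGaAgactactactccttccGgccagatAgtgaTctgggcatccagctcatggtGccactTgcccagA
Csf2rb2: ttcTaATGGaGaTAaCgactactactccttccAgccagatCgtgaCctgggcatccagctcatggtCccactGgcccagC
At the other extreme, both genes share an identical run of 242 bases within 1 exon, at chr15:78348577-78348818 and chr15:78284630-78284871, so that a short read from it cannot be placed in one or the other.
Csf2rb and Csf2rb2: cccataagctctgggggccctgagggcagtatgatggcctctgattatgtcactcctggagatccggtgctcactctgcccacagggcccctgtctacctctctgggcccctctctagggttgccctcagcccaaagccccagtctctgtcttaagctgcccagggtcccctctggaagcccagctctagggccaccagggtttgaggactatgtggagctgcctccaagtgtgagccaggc
Of all 50-base words in the transcript of Csf2rb, 18.4% also occur in that of Csf2rb2, and 19.0% in the reverse direction. How reads with several matches were counted is not stated, so the split of counts between these paralogues is uncertain and their sum is given as well.

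**Figure D1:**
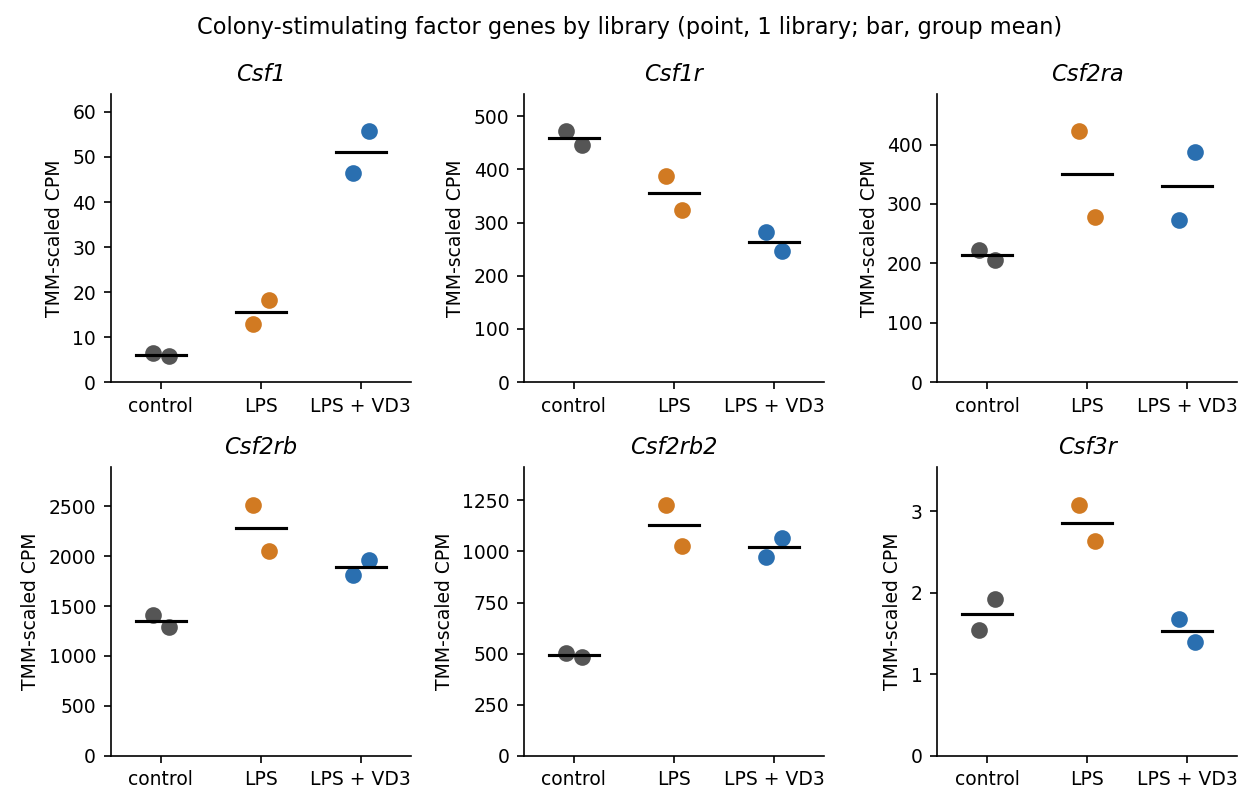
TMM-scaled CPM (vertical axis, from 0 in each panel) of the 6 tested genes in the control, LPS and LPS + VD3 groups, with 1 point per library and a bar at the group mean. Csf1 steps up from 5.77 to 6.51 in the control libraries to 46.5 to 55.7 in the LPS + VD3 libraries, while Csf1r lies lower in each later group and the LPS and LPS + VD3 libraries of Csf2ra overlap.

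Csf1 was the ligand that could be measured. In CPM scaled by trimmed mean of M values (TMM), it stood at 6.51 and 5.77 in the control libraries, 12.9 and 18.2 with LPS and 46.5 and 55.7 with LPS + VD3. The 3 groups did not overlap, and every LPS + VD3 library lay above every LPS library, which in turn lay above both controls. Csf1 lies on the minus strand of chromosome 3 (chr3:107741048-107760469). Its counts ran from 36 in a control library to 280 in an LPS + VD3 library. With edgeR's quasi-likelihood test and Benjamini-Hochberg adjustment over the 10724 genes tested, Csf1 rose 2.53-fold with LPS (log2 fold change 1.34 ± 0.26 SE, adjusted p = 0.00282). It rose a further 3.28-fold in LPS + VD3 against LPS (1.71 ± 0.22, adjusted p = 0.00252 by edgeR). Against control, LPS + VD3 was 8.31-fold higher (3.05 ± 0.24, adjusted p = 7.13e-06 by edgeR). These comparisons share groups and are not independent of each other. The rise with VD3 kept its size but not its call without the second LPS + VD3 library (1.57, adjusted p = 0.0733 by edgeR).

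The 250 bases before the start of Csf1 are shown because this gene changed in all 3 comparisons. They were taken from RefSeq (GRCm38.p6, chr3:107760470-107760719, minus strand), and the capitals mark a match to the NF-kB consensus that begins 154 bases before the start.
Csf1: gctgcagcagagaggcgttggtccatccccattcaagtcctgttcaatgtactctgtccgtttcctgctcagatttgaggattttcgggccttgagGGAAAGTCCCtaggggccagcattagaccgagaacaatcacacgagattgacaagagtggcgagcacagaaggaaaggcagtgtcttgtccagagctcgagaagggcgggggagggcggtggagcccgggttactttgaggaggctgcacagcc
NF-kB is a transcription factor family activated by LPS. A match to its consensus was present on either strand in 7.25% of all 32851 promoter windows of this length. Among the 5 genes of the system with a window, Csf3r also held a match, 129 bases before its start, and Csf3r passed in no comparison. Use of the motif was not tested. The direct repeat that the vitamin D receptor binds was not among these 250 bases, and it occurred in 13 windows in all (0.0396%). Neither TGANTCA (AP-1), AGGAAGT (PU.1) nor TTCNNNGAA (STAT) was found in the Csf1 window on either strand, against 6.75%, 7.69% and 7.02% of all windows.

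The other ligands were at the limit of detection, where 3 counts in a library correspond to 0.549 to 0.597 CPM by library totals without TMM. Csf3, which encodes G-CSF (chr11:98701263-98703629, plus strand), had 0 counts in both control libraries, 2 and 5 with LPS and 5 and 0 with LPS + VD3. Its summed counts, with exact 95% counting intervals, were 7 with LPS (2.81 to 14.4), 5 with LPS + VD3 (1.62 to 11.7) and 0 in control (0 to 3.69). These intervals overlapped, and no fold against control is given. The LPS + VD3 to LPS ratio was 0.700 with an exact 95% counting interval of 0.175 to 2.56, so no difference was detectable at this depth. Csf2, which encodes GM-CSF (chr11:54247271-54249667, minus strand), had 0 and 0 counts in control, 1 and 1 with LPS and 2 and 0 with LPS + VD3. All groups were under the limit of 3 counts, and no fold is given. Csf2 also overlaps Gm12223 on the opposite strand, and whether counting used strand is not stated. Neither gene passed the filter on low counts, so 6 of the 8 genes were tested.

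Csf1r, the receptor tyrosine kinase for M-CSF and interleukin 34 (chr18:61100598-61132149, plus strand), was highest in control. Its levels were 472 and 446 CPM in control, 387 and 323 with LPS and 282 and 246 with LPS + VD3. The groups did not overlap, and their order was the reverse of that of Csf1. The difference between LPS and control was -0.37 ± 0.15 on the log2 scale and did not pass the test (adjusted p = 0.096 by edgeR), nor did that between LPS + VD3 and LPS (-0.43 ± 0.15, adjusted p = 0.154). Csf1r fell in LPS + VD3 against control, 1.74-fold (-0.80 ± 0.16, adjusted p = 0.00287 by edgeR). The difference with LPS was -0.52 without the first LPS library and -0.25 without the second. It was -0.33 without the first control library and -0.41 without the second. It passed with scaling by library totals alone (-0.66, adjusted p = 0.00729 by edgeR), which shifted the median of all genes by -0.29. It also passed with a correction for the GC content of transcripts (-0.40, adjusted p = 0.00976 by edgeR). In 10 of 17 alternatives it stayed uncalled. The difference between LPS + VD3 and LPS was -0.55 without the second LPS library and -0.30 without the first. With GC correction it was -0.23 (adjusted p = 0.216 by edgeR). Csf1r overlaps Hmgxb3 on the opposite strand. Within a library, the ratio of Csf1r to Csf1 counts was 72.5 and 77.3 in control, 29.9 and 17.8 with LPS and 6.08 and 4.42 with LPS + VD3. With 2 libraries against 2, the exact two-sided permutation test of this ratio cannot go below p = 0.333, which it reached in each comparison.

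Csf2ra, the alpha chain that binds GM-CSF (chr19:61223957-61228429, minus strand), rose with LPS. It was at 222 and 205 CPM in control, 423 and 279 with LPS and 273 and 387 with LPS + VD3. Every LPS and LPS + VD3 library lay above the controls, and the LPS and LPS + VD3 libraries overlapped. The rise with LPS was 1.64-fold (0.71 ± 0.22, adjusted p = 0.0336 by edgeR). The value for LPS + VD3 against control, 0.63 ± 0.22, missed the threshold (adjusted p = 0.0518), and that for LPS + VD3 against LPS was -0.09 ± 0.22 (adjusted p = 0.845). The LPS libraries differed by a larger factor in this gene than in the other 5, and without the first of them the LPS value was 0.36 (adjusted p = 0.116 by edgeR). The call was also lost without the first (adjusted p = 0.116) or the second control library (adjusted p = 0.185) and with library totals alone (0.42, adjusted p = 0.17). The Csf2ra transcript had a GC content of 61.5%, above the 53.3% to 54.5% of the other 5 tested genes. The difference between both LPS libraries followed GC content across genes more closely (Spearman rho 0.678) than in control (0.245) or LPS + VD3 (0.191). With GC correction the LPS + VD3 to LPS value of Csf2ra changed sign to 0.43 (adjusted p = 0.16).

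Csf2rb, the shared beta chain, was the most abundant transcript of the system. It stood at 1411 and 1292 CPM in control, 2516 and 2052 with LPS and 1810 and 1964 with LPS + VD3. No groups overlapped, with LPS highest. Csf2rb rose 1.69-fold with LPS (0.76 ± 0.16, adjusted p = 0.00414 by edgeR) and was 1.40-fold higher in LPS + VD3 than in control (0.48 ± 0.16, adjusted p = 0.0361). The LPS + VD3 to LPS value of -0.28 ± 0.16 did not pass (adjusted p = 0.315 by edgeR). It was -0.41 without the second LPS library, -0.13 without the first and -0.10 with GC correction (adjusted p = 0.655 by edgeR). The LPS call was lost without the second control library (0.69, adjusted p = 0.0896). The LPS + VD3 call against control was lost without any 1 of its own or the control libraries (adjusted p = 0.0708 to 0.292) and with library totals (0.15, adjusted p = 0.469).

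Csf2rb2, the interleukin 3 beta chain, was at 502 and 482 CPM in control, 1229 and 1026 with LPS and 974 and 1068 with LPS + VD3. Both treated groups lay above control and overlapped each other. It rose 2.29-fold with LPS (1.20 ± 0.15, adjusted p = 0.000192 by edgeR) and 2.08-fold in LPS + VD3 against control (1.05 ± 0.15, adjusted p = 0.000432). The LPS + VD3 to LPS value was -0.14 ± 0.15 (adjusted p = 0.592) and 0.01 with GC correction. With the counts of both beta chains summed, LPS against control was 0.89 (adjusted p = 0.00158 by edgeR), LPS + VD3 against LPS -0.23 (adjusted p = 0.395) and LPS + VD3 against control 0.66 (adjusted p = 0.00831).

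**Figure D2:**
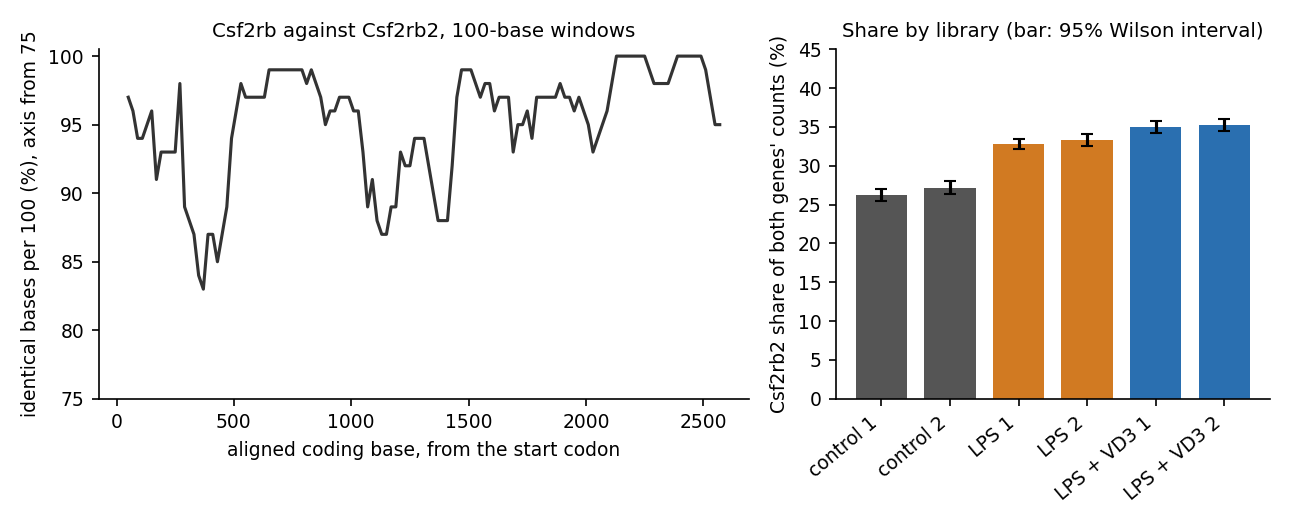
Left, percent identity (vertical axis, starting at 75%) of the aligned coding sequences of Csf2rb and Csf2rb2 in 100-base windows along the coding bases; right, the percent of the summed counts of both genes that fell on Csf2rb2 in each library, with 95% Wilson intervals. Identity reaches 100% around the shared run of 242 bases and again in windows centred on aligned bases 2390 to 2490. The share is 26.2% to 27.2% in control against 32.8% to 35.2% in the treated libraries.

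The share of Csf2rb2 in the counts of both beta chains differed between control and the treated groups. Csf2rb2 held 26.2% and 27.2% of their summed counts in control, 32.8% and 33.3% with LPS and 35.0% and 35.2% with LPS + VD3. The 95% Wilson intervals of both control libraries, 25.4% to 27.1% and 26.4% to 28.0%, did not reach those of any treated library, the lowest of which began at 32.1%. These intervals cover counting error only. The mean share was 26.7% ± 0.674 (SD, n = 2) in control, 33.1% ± 0.363 with LPS and 35.1% ± 0.165 with LPS + VD3, and the exact permutation p was 0.333, the smallest that 2 against 2 allows. The promoter of Csf2rb2 is shown because it rose more than its neighbour. In its 250 bases before the RefSeq start (chr15:78305722-78305971, minus strand, GRCm38.p6), capitals mark the single match to TTCNNNGAA, the STAT pattern, which begins 15 bases before the start.
Csf2rb2: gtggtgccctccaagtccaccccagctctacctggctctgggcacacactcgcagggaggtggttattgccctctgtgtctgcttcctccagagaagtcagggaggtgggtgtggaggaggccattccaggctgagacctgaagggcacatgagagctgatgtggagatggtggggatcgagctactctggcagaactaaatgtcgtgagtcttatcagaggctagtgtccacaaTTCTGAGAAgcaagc
This pattern was present in 7.02% of all windows. No match to the other 4 motifs was found in it, and the RefSeq table used here paired no window with Csf2rb.

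Csf3r, the G-CSF receptor that marks neutrophils (chr4:126024550-126044440, plus strand), was near the floor, with 1.54 and 1.92 CPM in control, 3.08 and 2.63 with LPS and 1.67 and 1.39 with LPS + VD3. These rest on 7 to 15 counts per library. Both LPS libraries were the highest, and the control and LPS + VD3 libraries overlapped. No comparison passed: LPS against control was 0.71 ± 0.41 (adjusted p = 0.227 by edgeR) and LPS + VD3 against LPS -0.89 ± 0.44 (adjusted p = 0.265). Beside it, the summed level of 9 neutrophil markers was 16.2 to 18.7 CPM in control, 19.7 to 26.7 with LPS and 28.9 to 35.8 with LPS + VD3, mostly S100a8 and Cxcr2, with 4 markers at 0 in every library. The part of neutrophil RNA in Csf3r was not tested.

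**Figure D3:**
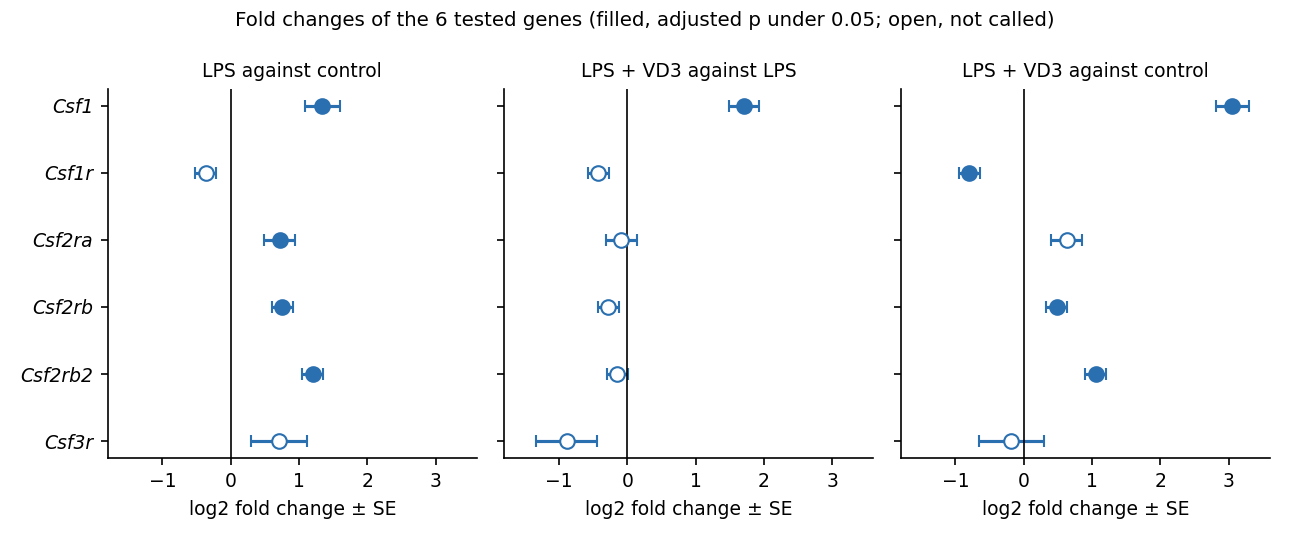
Log2 fold change ± SE (horizontal axis) of the 6 tested genes in each comparison, by edgeR; filled points have an adjusted p under 0.05. With LPS, 4 genes are called, all higher; Csf1 alone is called in LPS + VD3 against LPS, at 1.71; and Csf1r is the called gene that lies below 0, at -0.80 in LPS + VD3 against control.

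In LPS against control, 4 of the 6 tested genes rose (Csf1, Csf2ra, Csf2rb and Csf2rb2) and none fell, where 31.8% of all 10724 tested genes were called, 15.7% higher and 16.2% lower. Of the genes called, 49.2% were higher with TMM and 26.2% with library totals alone, where the median of all genes lay at -0.29. The median log2 fold change of the 6 was 0.74, beside 0.01 over all tested genes, and without the second control library 2 of them, Csf1 and Csf2rb2, were called. In all 6 genes the LPS libraries did not overlap control, as in 65.2% of all tested genes. In LPS + VD3 against LPS, Csf1 rose and the other 5 did not pass, where 3.83% of all tested genes were called (2.25% higher and 1.59% lower). The median of the 6 was -0.21, beside 0.00 over all tested genes, and 4 of the 6 did not overlap, as in 48.1% of all. The number of genes called in this comparison was 411, and it ranged from 55 without the second LPS + VD3 library to 3670 without the second LPS library. In LPS + VD3 against control, Csf1, Csf2rb and Csf2rb2 rose and Csf1r fell, where 35% of all were called, 17.7% higher and 17.3% lower (50.5% of calls higher with TMM and 25.9% with library totals). Here 5 of the 6 genes did not overlap, as in 75.8% of all, and the median was 0.55, beside 0.01.

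Per kilobase of the longest protein-coding transcript, control libraries held 276 CPM of Csf2rb, 116 of Csf2ra, 104 of Csf2rb2, 97.6 of Csf1r, 1.47 of Csf1 and 0.498 of Csf3r (means, n = 2). Csf2ra, Csf2rb2 and Csf1r were thus close to each other in control, and no pair of libraries of neighbouring genes overlapped. With LPS + VD3 the order of means was Csf2rb at 385, Csf2rb2 at 215, Csf2ra at 179, Csf1r at 56.2, Csf1 at 12.2 and Csf3r at 0.441 CPM per kilobase. There Csf2rb2 and Csf2ra overlapped, at 206 and 225 against 148 and 209, and Csf1r lay below all 3 GM-CSF and interleukin 3 receptor chains.

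The genes nearest in pattern were found among 9059 tested genes by the root mean square difference of centred log2 CPM over the 6 libraries. For Csf1 they were Hif1a (0.243), Cd80 (0.256) and Hivep2 (0.297). Hif1a encodes a hypoxia-inducible transcription factor and Cd80 a costimulatory ligand for T cells. For Csf1r the nearest were Ttll1 (0.030), Pxn (0.041) and Agap3 (0.044). The distance grows with the size of a change, so it does not compare likeness between Csf1 and Csf1r. Pearson r was 0.983 to 0.989 for the 3 nearest of Csf1 and 0.993 to 0.998 for those of Csf1r. Csf2ra was nearest to Prkab1 (0.067), Rnasek (0.080) and C1rl (0.105). Csf2rb was nearest to Blcap (0.039), Psme1 (0.052) and Flii (0.054), and Csf2rb2 to Rbm7 (0.059), Fbrs (0.066) and Il10rb (0.075), a chain of the interleukin 10 receptor. For the low Csf3r they were Trabd (0.081), Cenpt (0.085) and Flot1 (0.090). No member was among the 3 nearest of another, and these distances describe 6 libraries without a test.

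Genes around the colony-stimulating factors were examined in 6 lists. Their counts stand beside a background over all tested genes of 31.8% called with LPS, 3.83% between LPS + VD3 and LPS and 35% between LPS + VD3 and control, with medians of 0.01, 0.00 and 0.01. Among 9 related ligands and receptors, 3 were tested, and the stem cell factor gene Kitl fell with LPS (-1.43 ± 0.38, adjusted p = 0.0159 by edgeR) and in LPS + VD3 against control (-1.06 ± 0.36, adjusted p = 0.0447). Kitl was low, at 6.60 ± 1.09 CPM (SD, n = 2) in control, and both calls were lost without the second control library (adjusted p = 0.13 and 0.261 by edgeR) and with DESeq2 (adjusted p = 0.0961 and 0.228). The other M-CSF receptor ligand Il34 and the beta chain ligands Il3 and Il5 had 0 counts in every library. The median of the 3 tested genes was -0.21 with LPS and 0.38 with LPS + VD3 against control, and none was called between LPS + VD3 and LPS (median 0.37).

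**Figure D4:**
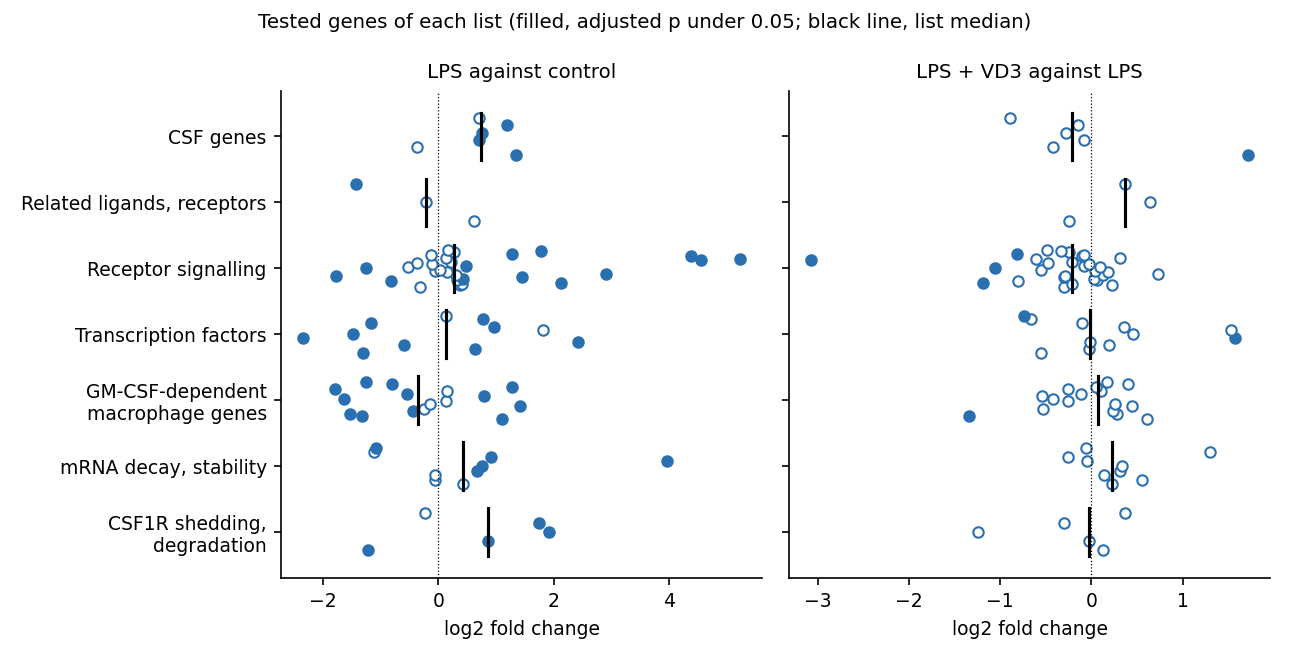
Log2 fold change (horizontal axis, on its own scale in each panel) of every tested gene in the colony-stimulating factor system and the 6 lists around it, by list (rows), with filled points for an adjusted p under 0.05 and a black line at the list median. With LPS genes of 5 of the 6 lists are called in both directions, and with LPS + VD3 against LPS few are, 4 of them in the signalling list, all lower.

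Of 29 genes that carry signals from these receptors, all tested, 10 rose, 3 fell and 16 did not pass with LPS, with a median of 0.27 beside 0.01 over all tested genes. Jak2, the kinase bound to the beta chain, went from 61.0 ± 1.23 CPM (SD, n = 2) in control to 461 ± 112 with LPS (2.92 ± 0.19, adjusted p = 2.22e-06 by edgeR). The kinases Syk (1.78 ± 0.14) and Src (4.39 ± 0.26) also rose, as did Socs3 (5.24 ± 0.26), an inhibitor of cytokine receptor signalling. Between LPS + VD3 and LPS, 4 of the 29 fell, none rose and 25 did not pass (median -0.21 beside 0.00). Stat5a, a transcription factor that the GM-CSF receptor activates, fell from 74.3 ± 2.62 to 42.3 ± 2.38 CPM (-0.81 ± 0.16, adjusted p = 0.0241). Cish and Socs1, feedback inhibitors that STAT5 and other STATs induce, also fell (-1.18 ± 0.22, adjusted p = 0.015, and -3.07 ± 0.57, adjusted p = 0.0156). Socs1 stood at 26.0 ± 18.7 CPM (SD, n = 2) with LPS and 3.09 ± 1.55 with LPS + VD3, and its value was -2.06 without the first LPS library, -3.66 without the second and -3.69 without the first LPS + VD3 library. Pik3cd, a phosphoinositide 3-kinase catalytic subunit, fell as well (-1.06 ± 0.20, adjusted p = 0.0154). Each of these 4 calls was lost without either LPS + VD3 library (adjusted p = 0.087 to 0.302 by edgeR) and with no filter on low counts, and Stat5a also without either control library. Jak2 was at 762 ± 11.3 CPM with LPS + VD3, and its value against LPS just missed the threshold (0.73 ± 0.18, adjusted p = 0.0512). Against control, 8 rose and 5 fell with LPS + VD3 (median 0.33), with Jak2 (3.64 ± 0.20), Src (4.28 ± 0.26) and Socs3 (4.63 ± 0.25) among the first and Inpp5d, a lipid phosphatase that opposes phosphoinositide 3-kinase, among the second (-2.06 ± 0.17).

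Of 11 transcription factors known from macrophages and from the control of Csf1r or of GM-CSF responses, 4 rose, 5 fell and 2 did not pass with LPS (median 0.14, beside 0.01 over all tested genes). Ets2 rose from 26.3 ± 0.304 to 142 ± 0.440 CPM (SD, n = 2; log2 fold change 2.43 ± 0.16, adjusted p = 1.84e-06 by edgeR), while Fli1 (-2.35 ± 0.23), Irf8 (-1.48 ± 0.20) and Runx1 (-1.17 ± 0.16) fell. Between LPS + VD3 and LPS, Fli1, an ETS family factor, rose from 12.1 ± 2.90 to 36.1 ± 6.65 CPM (1.57 ± 0.23, adjusted p = 0.0055) and Tfec, a factor of the MiT family, fell (-0.74 ± 0.14, adjusted p = 0.0191), while 9 did not pass (median -0.02). The rise of Fli1 was not called without the second LPS + VD3 library (adjusted p = 0.118 by edgeR), nor was the fall of Tfec without either LPS + VD3 or either control library (adjusted p = 0.0866 to 0.232). Against control, LPS + VD3 had 4 higher and 5 lower (median -0.41), with Ets2 (2.42 ± 0.16) and Mitf (1.32 ± 0.18) higher and Runx1 (-1.27 ± 0.16) and Cebpa (-1.86 ± 0.23) lower.

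Of 16 genes whose expression in alveolar macrophages depends on GM-CSF, 4 rose and 8 fell with LPS, and 4 did not pass (median -0.35), where 15.7% of all tested genes rose and 16.2% fell (median 0.01). The scavenger receptor gene Marco rose from 1436 ± 5.18 to 3500 ± 42.5 CPM (1.29 ± 0.15, adjusted p = 9.72e-05 by edgeR). Siglecf, listed under an older symbol, Siglec5 (-1.26 ± 0.15), the keratin gene Krt79 (-1.79 ± 0.19) and the proton pump subunit gene Atp6v0d2 (-1.54 ± 0.18) fell. Between LPS + VD3 and LPS, 1 of the 16 changed (median 0.08). Abcg1, a cholesterol exporter of lipid-handling macrophages, fell from 195 ± 33.8 to 76.8 ± 3.18 CPM (-1.34 ± 0.17, adjusted p = 0.00192), a call lost without either LPS + VD3 library (adjusted p = 0.0557 and 0.059). In control Abcg1 was at 487 ± 10.6 CPM. Against control, 3 rose and 7 fell with LPS + VD3 (median -0.30), with the carbonic anhydrase gene Car4 (1.85 ± 0.19) and Plet1, listed under an older symbol, 1600029D21Rik (1.71 ± 0.18), higher, and Krt79 (-2.05 ± 0.19) and Abcg1 (-2.66 ± 0.17) lower.

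Colony-stimulating factor mRNAs are short-lived, and 9 genes for proteins that bind and destroy or stabilise such mRNAs were tested. With LPS 4 rose and 1 fell (median 0.42), where 15.7% of all tested genes rose and 16.2% fell (median 0.01). Zc3h12a, an endonuclease (Regnase-1), rose from 33.9 ± 0.162 to 531 ± 106 CPM (3.97 ± 0.19, adjusted p = 2.31e-07 by edgeR), and Zfp36l2, an AU-rich element binding protein, fell (-1.08 ± 0.15). Smaller rises of its relative Zfp36 (0.91 ± 0.27) and of the Roquin gene Rc3h1 (0.66 ± 0.20) were lost without either control library and with library totals. None was called between LPS + VD3 and LPS (median 0.22). Against control, 4 rose and 1 fell with LPS + VD3 (median 0.64), Zc3h12a by 3.92 ± 0.19, Rc3h1 by 0.97 ± 0.20 and Rc3h2 by 1.10 ± 0.24, with Zfp36l2 at -1.14 ± 0.15.

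The M-CSF receptor is cut from the cell surface by a protease, and of 6 genes for its shedding and degradation 5 were tested. With LPS 3 rose and 1 fell (median 0.85). Adam17, the protease that cuts it, went from 202 ± 5.43 to 365 ± 77.1 CPM (0.85 ± 0.17, adjusted p = 0.00342 by edgeR). Rhbdf1 (1.92 ± 0.40) and Rhbdf2 (1.75 ± 0.22), which encode the iRhom proteins that bring ADAM17 to the surface, rose as well, and the related protease Adam10 fell (-1.22 ± 0.20). None was called between LPS + VD3 and LPS (median -0.03). Against control, Adam17 (0.82 ± 0.17) and Rhbdf2 (1.45 ± 0.22) rose and Adam10 fell (-1.09 ± 0.20) with LPS + VD3 (median 0.67). Both Adam17 calls were lost without the second control library (adjusted p = 0.0525 and 0.0567 by edgeR).

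Markers of monocytes, which also carry Csf1r, were set beside these results. Their summed level over 7 genes was 1067 to 1071 CPM in control, 2269 to 2497 with LPS and 2908 to 3381 with LPS + VD3, carried mostly by Fn1 at 691 ± 4.10, 1751 ± 247 and 2644 ± 328 CPM (SD, n = 2), a gene that alveolar macrophages also express. Vcan, a proteoglycan gene of monocytes, rose from 3.56 ± 0.184 CPM in control to 317 ± 69.9 with LPS (6.47 ± 0.25, adjusted p = 5.6e-08 by edgeR) and stood at 193 ± 16.5 with LPS + VD3 (adjusted p = 1.07e-07 against control). The monocyte receptor Ccr2 went the other way, with 33 and 48 counts in control, 3 and 5 with LPS and 1 and 1 with LPS + VD3, and Ly6c2 had 0 to 9 counts. The part of monocyte RNA in the values of Csf1r and Csf1 was not tested. Lung epithelial markers summed to 224 to 241 CPM in control, 33.7 to 38.6 with LPS and 39.8 to 54.7 with LPS + VD3, mostly Cdh1. Cdh1 was the 1 marker of these 10 that passed the filter, with Epcam at 1 to 5 counts and Sftpc at 0. Which cells the Cdh1 RNA came from was not tested.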

How the data were processed

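RNA was measured in 6 libraries of alveolar macrophages, 2 per group, prepared with the Qiagen RNeasy Micro and KAPA mRNA HyperPrep kits, per the labels' protocols. The deposited table used for all main results holds raw counts per gene and library. A further deposited table holds log2 values, which served as an alternative. They were checked to equal log2(CPM + 1) within 0.00423, with CPM by the totals of its own genes without TMM. TopHat2, edgeR and mm10 are named, per the submitters' processing notes, without versions or order. The counting program, its annotation, strand setting and treatment of multiply matching reads were not stated in the labels or files used here. The labels number the title of the first LPS library in another series than the other 5, which may be a sign of a batch and was not tested. Without that library the LPS against control value went from 0.71 to 0.36 for Csf2ra and from -0.37 to -0.52 for Csf1r. The numbers in the source names are taken up at the end.

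Genes were kept by filterByExpr at a minimum count of 10 and a minimum total of 15 (10724 of 23413 genes), then scaled by TMM. edgeR 4.0.16 in R 4.3.3 fitted 3 group means to all 6 libraries (3 residual degrees of freedom, prior 7.01). Contrasts were tested by the quasi-likelihood F test with Benjamini-Hochberg adjustment at 0.05 over all tested genes, and the procedure was tested on simulated data. SE is |log2 fold change| over the root of F. Coordinates, lengths and coding sequences are from GENCODE M21 on GRCm38 and promoter windows from RefSeq on GRCm38.p6, which matched 5 of the 8 genes. Coding sequences were aligned with Biopython 1.88, and exact tests used SciPy 1.17.1. Alternatives were limma-voom (limma 3.58.1), DESeq2 1.42.0, no filter beyond 1 count, library totals without TMM, offsets fitted to transcript GC, a replicate block, the compared libraries only, summed beta chains, the log2 table with a pseudocount of 1 or 0.5, and each library left out. The 8 genes and all lists were chosen with earlier results of these data known. Named genes are the 8, up to 4 called genes of smallest p per list and comparison, and the 3 nearest in pattern with a mean log2 CPM of at least 2. Marker genes, and Jak2 in LPS + VD3 against LPS, were named after their values were seen. A gene of the transcription factor list is not reported here.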

Additional observations from a re-analysis of the deposited data

How the results depend on the processing

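Over the alternatives, the 6 tested colony-stimulating factor genes gave 265 values with the same direction and side of the threshold, 17 that lost and 17 that gained a call, and 6 with the opposite sign. The opposite signs fell on LPS + VD3 against LPS: Csf2ra at 0.43 with GC offsets, 0.41 with the replicate block and GC offsets, 0.24 without the first LPS library and 0.15 without the first LPS + VD3 library, and Csf2rb2 at 0.0056 with GC offsets and 0.0032 with the block and GC offsets. Leaving out 1 library gave -0.36 to 0.24 for Csf2ra. The cause was not tested. Csf1 kept its call with LPS (0.94 to 1.55) and against control with LPS + VD3 (2.58 to 3.22) in all 17 alternatives. Csf2ra in LPS + VD3 against control was called in 8 of 17 alternatives (0.29 to 0.97 in all), and with LPS lost its call with no filter beyond 1 count (adjusted p = 0.0897 by edgeR).

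Leaving out a library gave 1940 to 4829 genes called in LPS against control (3411 with all libraries), 55 to 3670 in LPS + VD3 against LPS (411) and 2126 to 5410 in LPS + VD3 against control (3749). Called members ranged from 2 to 4 of 6, 0 to 3 and 3 to 5. In LPS + VD3 against LPS the count was 169 with no filter beyond 1 count, 258 from the compared libraries only and 803 with GC offsets. Scaling by library totals shifted the median of all genes by -0.29 in LPS against control and by -0.33 in LPS + VD3 against control.

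The source names tie the number of each LPS + VD3 library to an LPS library, which hints at shared cells or a shared day that the labels do not state. Deviations of same-numbered libraries from their group means correlated at 0.172 (control and LPS), 0.0894 (control and LPS + VD3) and 0.196 (LPS and LPS + VD3). With the replicate number as a block, 1152 genes were called in LPS + VD3 against LPS, and 1393 with GC offsets as well. Csf1r then passed with LPS (-0.37, adjusted p = 0.0463 by edgeR) and Csf2ra in LPS + VD3 against control (0.64, adjusted p = 0.0237), and the block alone changed no other call among the 6 genes.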
